A study of Mus musculus with 60 samples.

Results

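Transcripts of fat and of skeletal muscle were followed in injured carotid arteries of mice, as a measure of how much surrounding tissue each piece of artery carried. The genes are 10 transcripts named by symbol, of which Adipoq, Lep, Cfd, Plin1 and Cidec belong to fat and Ckm, Acta1, Mb, Tnnt3 and Mylpf to skeletal muscle. Every probe annotated to them was taken, which gave 13 of the 45281 probes on the array and 10 of the 19058 genes with a probe. The single Cfd probe carries no current symbol. It was identified through the older names of the gene that the deposited file lists as synonyms (Adn, DF and factor D). Of the 13 probes, 8 were detected on at least 3 of the 12 artery arrays, at a detection p under 0.01, and entered the tests: 1 probe each of Adipoq, Lep, Cfd, Plin1, Cidec, Acta1, Mb and Mylpf.

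The common carotid artery runs through the neck embedded in loose connective tissue with fat, close to the muscles of the neck. Adipocytes store triglyceride in a lipid droplet coated by dedicated proteins and secrete hormones into the blood, and the transcripts chosen here are low in smooth muscle cells and endothelium. Striated muscle fibres are built from sarcomeres whose actin, myosin light chain and troponin isoforms differ from those of vascular smooth muscle. Both sets of transcripts were therefore taken to report tissue other than the vessel wall. Which cells they came from in these pieces was not tested. In a bulk extract, fewer cells of a type and less RNA per cell cannot be told apart.

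The artery experiment held 12 of the 60 Illumina mouse BeadChip arrays of the study, in 4 groups of 3. Male mice of about 12 weeks, with the strain label C57BL/6 in every group, had a segment of about 6 mm of the common carotid artery prepared and denuded electrically over 4 mm. They received HDL, the lipoprotein that carries cholesterol from tissues to the liver, at 20 mg/kg or PBS intravenously 3 h after the injury, and the labels give a stimulation period of 12 h. The groups were wild-type mice given PBS, wild-type mice given HDL, mice labelled Atf3-deficient given PBS and mice labelled Atf3-deficient given HDL. Every group was injured, and uninjured artery was not analysed here. The study's design text does not describe the Atf3 allele, whether the mutant mice were littermates, or how perivascular tissue was removed. The labels do not say whether the arrays of a group come from separate animals, so the p-values below measure the spread between arrays, which may be technical.

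Detected probes ranged from 9266 to 15397 per array (20.5% to 34.0%). Values below are background-corrected, quantile-normalised log2 signals. The members' undetected values lay between 4.17 and 4.95, except 5.31 on wild-type HDL 3 (Mb) and 5.65 to 5.89 on wild-type HDL 1 (Mylpf, Mb and Adipoq). The Atf3 probe, the check of the genotype labels, gave 5.92 to 9.99 on the arrays labelled wild-type and 6.35 to 9.86 on those labelled Atf3-deficient, so it did not separate the labels. Whether the probe lies in the deleted part of the gene is not given. Erdr1, a gene that differed between the labelled genotypes, was at 9.49 to 10.92 on 5 of the 6 wild-type arrays and at 4.20 to 4.65 on 5 of the 6 labelled Atf3-deficient. The array labelled wild-type PBS 3 had 4.48 and the one labelled Atf3-deficient HDL 3 had 10.33, the reverse of their labels. Arrays wild-type HDL 1 and 3 had the fewest detected probes, 9266 and 11094 against 12503 or more elsewhere. Their Myh11, the smooth muscle myosin heavy chain that marks the vessel wall, was 6.50 and 6.06 against 9.70 to 12.13 on the other 10 arrays. Group differences of Adipoq, Cfd, Cidec and Lep that move by over 1.5 times or change sign without these arrays are also given without them.

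Fat transcripts differed widely between pieces of the same group. Adipoq, adiponectin, the hormone most characteristic of adipocytes, was 5.10, 4.82 and 11.72 on the 3 wild-type PBS arrays and 5.89, 8.26 and 5.77 on the 3 wild-type HDL arrays. It was 9.85, 10.92 and 9.46 on the arrays labelled Atf3-deficient PBS and 4.85, 6.56 and 11.14 on those labelled Atf3-deficient HDL. The 3 arrays labelled Atf3-deficient PBS were all high, while each other group held 1 array clearly above its other two. The group means were 7.21 ± 3.91, 6.64 ± 1.41, 10.08 ± 0.76 and 7.52 ± 3.25 in the same order (SD, n = 3), and the groups overlapped in each of the 4 comparisons of HDL with PBS or of one genotype label with the other. On the scanner's linear scale the Adipoq signal ran from 114 to 4020, and the probe was detected on 9 of the 12 arrays, with wild-type PBS 2, wild-type HDL 1 and Atf3-deficient HDL 1 undetected.

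Cfd, complement factor D or adipsin, a protease of the alternative complement pathway that adipocytes secrete, was detected on all 12 arrays. It was 8.14, 5.48 and 14.56 in wild-type PBS, and 8.79, 11.91 and 5.74 in wild-type HDL. It was 13.46, 13.53 and 13.28 in the group labelled Atf3-deficient PBS, and 6.84, 10.69 and 13.60 in the group labelled Atf3-deficient HDL. After normalisation the highest array, wild-type PBS 3, stood 540-fold above the lowest, wild-type PBS 2. On the linear scale their signals were 23191 and 145. The lowest linear signal was 116, on wild-type HDL 3, so the lowest array before normalisation was a different one. Within the group labelled Atf3-deficient PBS the SD was 0.13, against 4.67 among the wild-type PBS arrays.

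Lep, leptin, the hormone that reports fat stores to the brain, moved over a narrower range. It was 4.82, 4.95 and 7.06 in wild-type PBS, and 6.23, 5.29 and 5.64 in wild-type HDL. It was 7.24, 6.41 and 7.06 in the group labelled Atf3-deficient PBS, and 4.71, 4.82 and 4.92 in the group labelled Atf3-deficient HDL. The Lep signals were dim throughout, 115 to 250 on the linear scale. In the wild-type HDL group the linear signals were 115 to 132 and in the group labelled Atf3-deficient HDL 120 to 143, so the order of these 2 groups before normalisation is not that of the log2 values. Array Atf3-deficient HDL 3 had one of the highest Adipoq values of the experiment and a Lep of only 4.92.

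The 2 lipid droplet proteins followed Adipoq. Cidec, which lets droplets fuse into the large droplet of white adipocytes, was 4.39, 4.20 and 11.05 in wild-type PBS, and 4.45, 6.42 and 4.31 in wild-type HDL. It was 8.43, 9.38 and 7.61 in the group labelled Atf3-deficient PBS, and 4.37, 5.41 and 9.84 in the group labelled Atf3-deficient HDL. The 7 arrays on which it was detected were those with the 7 highest Adipoq values. Plin1, perilipin, which coats the droplet and gates access of lipases, was detected by 1 of its 2 probes on 3 arrays only: wild-type PBS 3 with 6.65, Atf3-deficient PBS 2 with 5.49 and Atf3-deficient HDL 3 with 5.86. The second Plin1 probe was detected on no array, with values from 4.20 to 4.61.

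**Figure D1:**
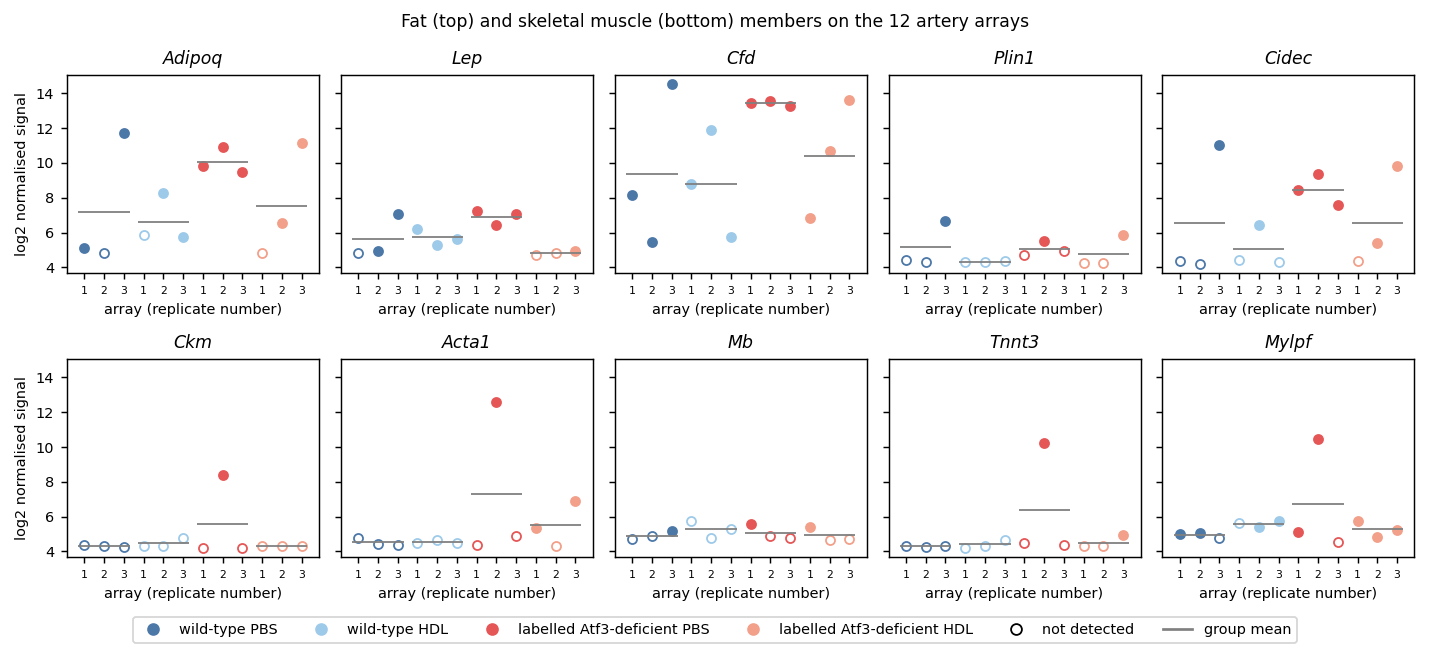
Log2 normalised signal (vertical axis) of the brightest probe of each gene on the 12 artery arrays (horizontal axis, replicate number within each group), with filled points where the probe was detected at p under 0.01, open points where it was not, and a grey line at each group mean. In the top row Adipoq, Cfd and Cidec are high on wild-type PBS 3, on all 3 arrays labelled Atf3-deficient PBS and on Atf3-deficient HDL 3, and in the bottom row 4 of the 5 muscle transcripts peak on Atf3-deficient PBS 2.

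Adipoq, Cfd, Plin1 and Cidec, 4 of the 5 transcripts, were high and low on much the same pieces, and Lep less so. As a description over the 12 arrays, which share their chips and normalisation, Pearson's r was 0.985 for Adipoq with Cidec, 0.939 with Cfd and 0.843 with Plin1. The 6 pairs among Adipoq, Cfd, Plin1 and Cidec had r from 0.703 to 0.985, and the 4 pairs with Lep from 0.462 to 0.620. The 250 bases before the annotated start of Adipoq and Cidec, the pair with the closest pattern, are shown for comparison with those of the muscle genes (RefSeq, GRCm38.p6, 5′ to 3′ on the gene's strand). Adipoq lies on the plus strand at chr16:23146286-23146535, and Cidec on the minus strand at chr6:113435761-113436010. Capitals mark the letters CAGCTG, an E-box form bound by muscle basic helix-loop-helix factors.
Adipoq: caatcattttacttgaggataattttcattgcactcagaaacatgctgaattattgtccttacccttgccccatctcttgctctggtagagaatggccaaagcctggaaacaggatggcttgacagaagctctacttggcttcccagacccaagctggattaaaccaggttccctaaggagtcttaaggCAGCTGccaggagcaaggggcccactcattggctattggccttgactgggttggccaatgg
Cidec: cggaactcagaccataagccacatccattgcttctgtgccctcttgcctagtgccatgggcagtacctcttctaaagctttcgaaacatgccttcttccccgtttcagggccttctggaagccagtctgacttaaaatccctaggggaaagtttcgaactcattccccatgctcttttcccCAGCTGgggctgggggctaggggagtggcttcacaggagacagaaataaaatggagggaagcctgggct
Over windows from 250 bases before to 50 after the start, 12 promoters of 9 of the 10 genes were found. Both strands were searched. CAGCTG stood in at least 1 promoter of 4 of the 5 fat genes and of 4 of the 4 muscle genes with a promoter. Of all 32851 promoters of that length 16.3% held it, a share per promoter and not per gene. Cidec and Mb, which have several promoters, each also had a window without it. The letters began 61 bases before the start of Adipoq and 69 before that of Cidec, and no Cfd window held them. CCAAT occurred 3 times in the Adipoq window, where 11.7% of all promoters hold at least 2. The general E-box CANNTG, which includes CAGCTG, stood in 72.3% of all promoters. TTGCNNCAA, searched as a C/EBP motif and present in 2.08% of all promoters, was in no window of the fat genes but in windows of Mb. Other forms of the C/EBP site were not searched. The Lep window holds TTGCGCAA, which the searched letters cannot match, so absence of a C/EBP site was not tested.

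Skeletal muscle transcripts were high on 1 array. On the array labelled Atf3-deficient PBS 2, Acta1, the actin of skeletal sarcomeres, was 12.57, and on the other 11 arrays it lay between 4.30 and 6.88. It was detected there and on 2 others, Atf3-deficient HDL 3 with 6.88 and Atf3-deficient HDL 1 with 5.35. Ckm, the muscle creatine kinase that buffers ATP, was 8.39 on Atf3-deficient PBS 2 and 4.18 to 4.77, without detection, on the other 11. Tnnt3, the fast-twitch troponin T, was 10.21 on the same array, 4.94 on Atf3-deficient HDL 3 and undetected on the rest.
Mylpf, the regulatory light chain of fast-twitch myosin, has 2 probes that both peaked on Atf3-deficient PBS 2, with 10.46 and 9.62. The first was detected on 9 arrays, with values from 4.57 to 5.74 outside the peak, and the second on no other array. The low Mylpf values are close to background. The same probe was detected on 28 of the 48 macrophage arrays of the study, where its linear signal was 98.8 to 184.5.
Mb, myoglobin, the oxygen store of oxidative muscle fibres and the heart, did not follow the other muscle genes. Its brighter probe ranged from 4.67 to 5.76 and was detected on wild-type PBS 3, Atf3-deficient PBS 1 and Atf3-deficient HDL 1. On Atf3-deficient PBS 2 it was 4.91 and undetected, and the second Mb probe was detected on no array. Across the 12 arrays r was 0.934 to 0.989 for the 6 pairs among Ckm, Acta1, Tnnt3 and Mylpf, which reflects the 1 high array, and -0.18 to 0.03 for Mb with these 4.

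The bases before the start of 3 muscle genes that peaked together are given with the same marking. Ckm is on the plus strand at chr7:19410844-19411093, Acta1 on the minus strand at chr8:123894776-123895025 and Mylpf on the plus strand at chr7:127211358-127211607.
Ckm: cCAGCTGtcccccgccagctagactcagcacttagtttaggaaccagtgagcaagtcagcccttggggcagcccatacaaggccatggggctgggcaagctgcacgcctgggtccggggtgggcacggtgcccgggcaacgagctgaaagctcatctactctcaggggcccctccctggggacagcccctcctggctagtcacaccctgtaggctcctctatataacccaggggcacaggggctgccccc
Acta1: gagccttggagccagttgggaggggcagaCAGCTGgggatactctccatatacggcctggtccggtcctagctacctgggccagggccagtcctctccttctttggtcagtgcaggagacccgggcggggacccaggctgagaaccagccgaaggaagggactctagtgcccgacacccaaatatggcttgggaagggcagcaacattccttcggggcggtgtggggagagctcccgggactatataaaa
Mylpf: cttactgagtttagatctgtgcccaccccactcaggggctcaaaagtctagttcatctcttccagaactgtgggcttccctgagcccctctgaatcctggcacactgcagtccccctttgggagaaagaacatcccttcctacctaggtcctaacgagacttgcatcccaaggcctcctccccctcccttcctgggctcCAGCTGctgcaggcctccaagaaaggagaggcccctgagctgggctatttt
CAGCTG began 249 bases before the start of Ckm, 221 before that of Acta1 and 51 before that of Mylpf. TATAAA, present in 13.6% of all promoters, was found in the Acta1 window only, and the MEF2 motif, in 1.86% of all promoters, in no window of the 9 genes. No promoter of Tnnt3 was used here.

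Of 29 other white fat genes with a probe, 23 were detected on wild-type PBS 3 and 21 on Atf3-deficient HDL 3. Of all probes, 30.5% and 33.6% were detected on these arrays. The count was 8 on each of wild-type HDL 1 and 3, where only 20.5% and 24.5% of all probes were detected. On the remaining arrays it was 10 to 19, with 10 on Atf3-deficient HDL 1 (29.5% of all probes). The brightest genes of this list were also detected on the arrays with few fat genes. Cav1, the caveolar coat protein that endothelium and smooth muscle share, was 7.65 to 12.82. Lpl, lipoprotein lipase, was 8.52 to 12.66, and Pnpla2, the first lipase of triglyceride breakdown, 9.17 to 12.93. The probe of Fabp4, the adipocyte fatty acid-binding protein, was detected on 1 array, and those of Cd36, Fasn and Acaca on none, so some fat markers had no usable probe signal here.
Of the brown fat list Ucp1, the uncoupling protein that defines heat-producing brown adipocytes, was detected on 4 arrays: wild-type PBS 3 with 8.87, Atf3-deficient PBS 1 with 7.90, Atf3-deficient PBS 2 with 7.72 and Atf3-deficient HDL 3 with 9.84. On the other 8 it was 4.21 to 4.93. Cox8b, a cytochrome oxidase subunit enriched in brown fat and striated muscle, spanned 4.35 to 11.76 and Cox7a1, another such subunit, 4.71 to 10.10. Prdm16, a transcription factor of brown adipocytes that other cells express as well, did not follow them: it was highest on wild-type PBS 1 and 2, with 7.67 and 7.23, where Ucp1 was undetected, and 5.50 on Atf3-deficient PBS 2. Array Atf3-deficient PBS 3, with an Adipoq of 9.46, had a Ucp1 of 4.93 that was not detected.

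**Figure D2:**
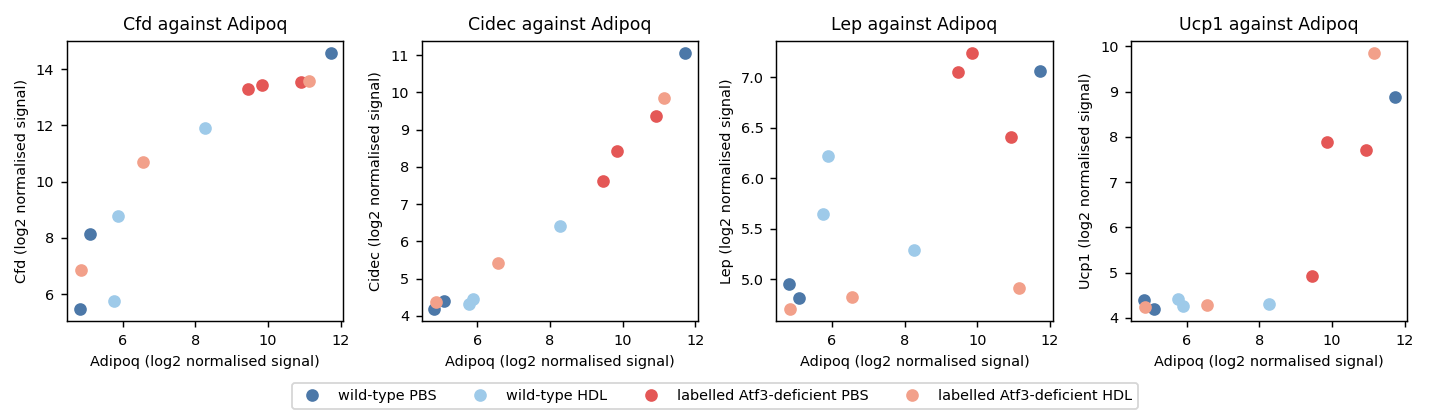
Log2 normalised signal of Cfd, Cidec, Lep and Ucp1 (vertical axes) against Adipoq (horizontal axes), with 1 point for each of the 12 artery arrays coloured by labelled group. Cfd and Cidec rise along with Adipoq, Lep departs on the array with an Adipoq of 11.14, and Ucp1 lies at 7.72 to 9.84 on 4 arrays and at 4.21 to 4.93 on 8.

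Among 14 other genes of fast muscle, 12 were detected on Atf3-deficient PBS 2, 7 on Atf3-deficient HDL 3, 4 on Atf3-deficient HDL 1 and 1 to 3 on the other arrays. Atp2a1, the calcium pump of fast fibres, reached 13.20 on Atf3-deficient PBS 2 and at most 7.72 elsewhere. Myl1, the essential light chain of fast myosin, reached 12.73 there and at most 9.03 elsewhere. Eno3, the muscle enolase, reached 8.71 and at most 5.95 elsewhere. The 5 genes Myh7, Tnni1, Tnnc1, Myl2 and Myl3, which slow fibres express, were detected on no array, and slow muscle genes in all numbered 3 or 4 of 10 on every array. Cardiac genes numbered at most 1 of 5. The contractile smooth muscle list numbered 8 or 9 of 10 on all arrays except wild-type HDL 1 and 3, which had 6. Acta2, the smooth muscle actin, was 12.02 to 15.23, and Mylk, the myosin light chain kinase, 8.16 to 12.65.
The brightest genes of the remaining muscle lists did not single out the same array throughout. Tcap, the titin cap, and Des, desmin, were highest on Atf3-deficient PBS 2, with 9.09 and 8.08. Myom1, an M-band protein, was highest on wild-type PBS 2 with 9.52. Of the slow list Atp2a2, a calcium pump that smooth muscle shares, spanned 8.23 to 11.17, Tpm3, a tropomyosin of many cells, 8.23 to 9.68 and Tnnt1, the slow troponin T, 5.00 to 6.38. Actc1, the cardiac actin, reached 6.27 on wild-type PBS 1. Among vessel wall genes Vwf, von Willebrand factor, spanned 8.89 to 10.88, Pecam1, an endothelial adhesion molecule, 6.35 to 10.31 and Emcn, endomucin, 4.53 to 10.43. Dcn, decorin, spanned 8.76 to 13.07 and Pdgfra, a receptor of fibroblasts, 4.90 to 10.48.

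**Figure D3:**
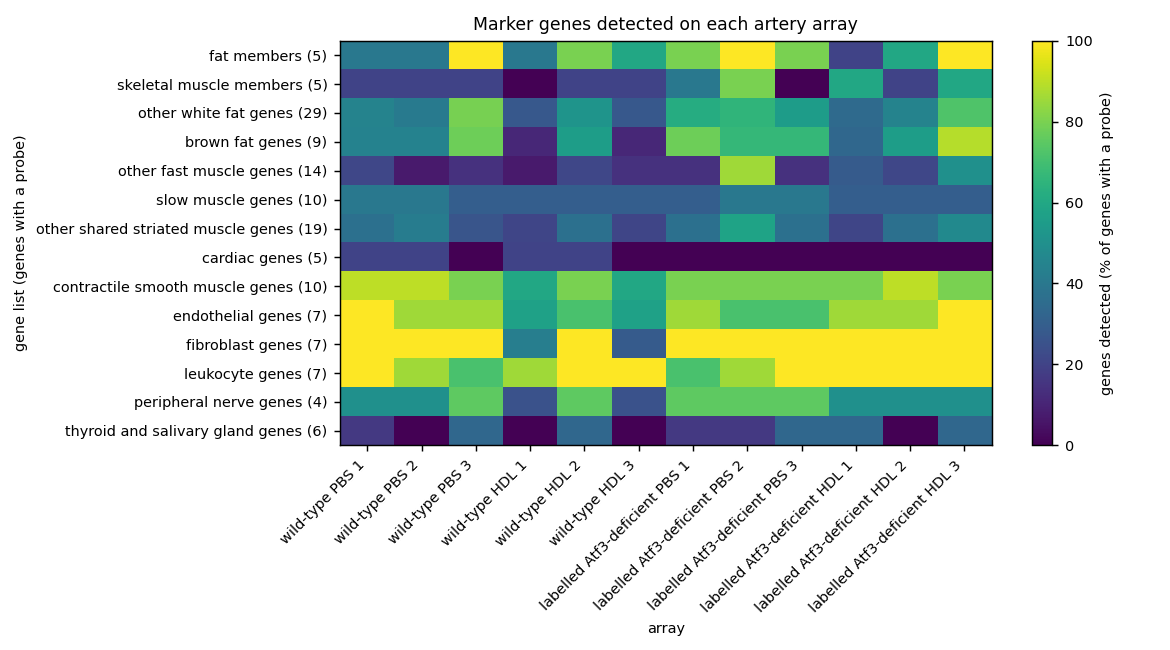
Share of the genes of each list (rows, with the number of genes with a probe) that were detected on each artery array (columns), from 0% in dark purple to 100% in yellow. The 3 fat rows are bright on wild-type PBS 3, on the arrays labelled Atf3-deficient PBS and on Atf3-deficient HDL 3. Wild-type HDL 2 comes close in these rows, with 80.0%, 51.7% and 55.6%, against 80.0%, 55.2% and 66.7% on Atf3-deficient PBS 3. The fast muscle row is bright on Atf3-deficient PBS 2, and the smooth muscle and fibroblast rows are dimmest on wild-type HDL 1 and 3.

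The size of this spread was ranked among all 15868 probes tested, as a description. By SD over the 12 arrays Cfd ranked 1 with 3.35, Adipoq 5 with 2.66, Cidec 10 with 2.51 and Acta1 15 with 2.35, where the median probe had 0.41. Mylpf ranked 234, Lep 1252, Plin1 2319 and Mb 9246. Of the 8 tested member probes 5 lay above the 95th percentile of 1.15, against 5.00% of all probes. The SD within groups was 3.27 for Cfd, 2.67 for Adipoq and 2.39 for Acta1, as large as over all arrays, and 0.71 for Lep against 0.99 over all arrays.
Many probes followed the fat genes. The probes with r above 0.8 with the mean of the 5 fat members numbered 409 (2.58% of those tested), and 58 had r below -0.8. These counts include the members' own probes. The 8 genes outside the members most like that mean, with r from 0.975 to 0.980, were Car3, Chchd10, Mrap, Cox8b, Mlxipl, Slc1a3, Tmem45b and Retsat. Car3 is a carbonic anhydrase abundant in adipocytes, and all 8 were highest on wild-type PBS 3. For the mean of the 5 muscle members the corresponding counts, again with the members' own probes, were 21 and 4. Outside the members Tnni2, Cmya5, Pvalb, Actn3, Atp2a1, Eno3, Ankrd23 and Tmod4 were most like that mean, with r from 0.930 to 0.984. Of these, Tnni2 is the fast troponin I and Pvalb parvalbumin, the calcium buffer of fast fibres.

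In the comparisons of groups none of the 8 tested member probes passed. In each of the 7 contrasts limma with Benjamini-Hochberg adjustment called 0 of 15868 probes (percent called 0%), with an adjusted p of 0.136 or more for every probe. The probes with an unadjusted p under 0.05 numbered 3568 for HDL in wild-type artery, 238 for HDL in artery labelled Atf3-deficient, 103 for the genotype label in PBS artery and 1256 in HDL artery. They numbered 753 for the difference of the HDL effects, 2407 for HDL and 310 for the genotype label averaged over the other factor. Comparisons below that use the same group share its arrays. The differences are log2 units with the standard error of the fit.

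With PBS 4 of the 5 tested fat probes had a higher mean on the arrays labelled Atf3-deficient than on the wild-type arrays, though none passed. Cfd was higher by 4.03 ± 2.24, Adipoq by 2.86 ± 1.83, Cidec by 1.93 ± 1.75 and Lep by 1.29 ± 0.51, while Plin1 differed by -0.09 ± 0.59 (limma adjusted p = 1 for each). Of the 5 tested fat probes 4 were positive, with a median of 1.93 against -0.01 over all probes tested. The 19 tested probes of other white fat genes had a median of 0.29, with 13 positive, and the 7 of brown fat 1.03, with 5 positive. In the same comparison 0 of 9 contractile smooth muscle probes were positive, with a median of -0.84, and 1 of 7 fibroblast probes, with a median of -0.58. Their part in the result was not tested.
No member was without overlap between these groups, where 3.31% of all probes were higher and 3.99% lower without overlap. Wild-type PBS 3 was the highest array of the experiment for Adipoq, Cfd, Cidec and Plin1. This is one of the arrays whose Erdr1 signal was the reverse of its label. Without it and Atf3-deficient HDL 3 the differences were 6.66 ± 1.64 for Cfd, 5.06 ± 0.78 for Adipoq, 4.06 ± 0.67 for Cidec and 1.94 ± 0.33 for Lep. The lowest of their adjusted p-values was then 0.093, for Adipoq, and 5 of 15347 probes passed. On chip 1, with 2 arrays against 1, the differences were 5.36 for Cfd, 5.29 for Adipoq, 4.51 for Cidec and 2.01 for Lep, and on chip 2, with 1 against 2, 3.26, 1.19, -0.01 and 1.05.
Acta1 was not detected on any wild-type PBS array. In the group labelled Atf3-deficient PBS it was detected on 1 array of 3, with 12.57. The remaining arrays of that group had 4.39 and 4.86, against 4.36 to 4.78 in wild-type PBS. The measured means were 7.27 and 4.53 (limma adjusted p = 1). With the wild-type values raised to the lowest detected signal the means differed 5.01-fold. That fold rests on the 1 array and is not a lower bound. Mylpf was higher by 1.77 ± 1.14 and, without array Atf3-deficient PBS 2, differed by -0.10 ± 0.31.

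With HDL in mice labelled Atf3-deficient, Lep was lower and the other fat genes lay lower on average with wide errors. Lep differed by -2.09 ± 0.51. It was detected on 3 of 3 PBS arrays but on 1 of 3 HDL arrays, so the HDL values lay near background and the size of the difference is uncertain. All 3 HDL arrays lay below all 3 PBS arrays. Groups without overlap in that direction were found for 5.14% of all probes tested, and in the other direction for 4.74%. By unadjusted p (0.00171 in limma) Lep ranked 3 of 15868 probes, and its adjusted p was 1 and stayed between 0.158 and 1 over all alternatives tried. It differed by -2.06 within chip 1 and by -2.14 within chip 2. In the deposited matrix, quantile-normalised here but not background-corrected, the difference was -0.77 ± 0.21. Cfd differed by -3.05 ± 2.24, Adipoq by -2.56 ± 1.83, Cidec by -1.93 ± 1.75 and Plin1 by -0.27 ± 0.59, with overlap of the groups for each and an adjusted p of 1.
These 4 changed sign between chips. On chip 1, with 2 arrays against 2, the differences were -4.73 for Cfd, -4.68 for Adipoq, -4.01 for Cidec and -0.85 for Plin1. On chip 2 they were 0.32, 1.68, 2.23 and 0.91 from 1 array against 1, the HDL array being Atf3-deficient HDL 3. Without the 2 arrays of reversed Erdr1 signal they were -4.71 for Cfd, -4.34 for Adipoq, -3.50 for Cidec and -2.05 for Lep, with adjusted p-values from 0.158 to 0.998. All 5 fat probes were negative, with a median of -2.09 against 0.00 over all probes, and 17 of the 19 other white fat probes were negative, with a median of -0.61. Of the contractile smooth muscle probes 6 of 9 were positive, with a median of 0.08, and of the leukocyte probes 7 of 7, with a median of 0.33. Mylpf differed by -1.45 ± 1.14, and by 0.42 ± 0.31 without array Atf3-deficient PBS 2. Acta1 differed by -1.76 ± 1.64, and in the PBS group it was detected on Atf3-deficient PBS 2 only. Without that array it was not tested. Within chips it differed by -3.65 on chip 1 and by 2.02 on chip 2.

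With HDL in wild-type mice 4 of the 5 fat probes lay lower, by less than their spread, and the direction of Adipoq, Cfd and Cidec depended on single arrays. Plin1 was negative in all 18 settings that tested it, from -1.21 to -0.28. In these groups it was detected on wild-type PBS 3 only, with 6.65, and the other arrays lay at 4.30 to 4.45. Leaving out wild-type PBS 3 took Plin1 below the detection filter, so its dependence on that array was not tested. Adipoq differed by -0.57 ± 1.83, Cfd by -0.58 ± 2.24, Cidec by -1.49 ± 1.75, Plin1 by -0.82 ± 0.59 and Lep by 0.11 ± 0.51 (limma adjusted p from 0.383 to 0.896). Of the other white fat probes 1 of 19 was positive, with a median of -0.79, and of the brown fat probes 0 of 7, with a median of -0.94, against -0.09 over all probes. The contractile smooth muscle probes had 0 of 9 positive and a median of -2.34, the fibroblast probes 0 of 7 and -1.94, the endothelial probes 1 of 7 and -1.56, and the leukocyte probes 7 of 7 and 1.65. Their part in the result was not tested. Leaving out wild-type PBS 3 turned Adipoq to 1.67 and Cidec to 0.76. Leaving out wild-type HDL 1 and 3, the arrays of low signal, turned Adipoq to 1.13, Cfd to 2.56 and Lep to -0.31, and brought Cidec to -0.03. Without the 2 arrays of reversed Erdr1 signal the differences were 1.62 for Adipoq, 2.01 for Cfd, 0.73 for Cidec and 0.79 for Lep (limma adjusted p from 0.331 to 0.566). On chip 1, with 1 array against 1, Adipoq differed by 0.79, Cfd by 0.66 and Cidec by 0.05, and on chip 2, with 2 against 2, by -1.26, -1.20 and -2.25. The HDL array of chip 1 was wild-type HDL 1, of low signal, and its linear signals lay below those of wild-type PBS 1. They were 114 against 142 for Adipoq, 203 against 541 for Cfd and 105 against 117 for Cidec. The sign on chip 1 was therefore the opposite before normalisation.
Mylpf was higher on all 3 HDL arrays than on the PBS arrays, by 0.64 ± 1.14 (adjusted p = 0.723), where 7.91% of all probes were higher and 8.53% lower without overlap. The linear signals of Mylpf were 113 to 135 with HDL and 127 to 139 with PBS, so the order before normalisation was not the same. Under median scaling in place of quantile normalisation Mylpf differed by -0.05 and Lep by -0.71, while the median of all probes tested stood at -0.96, against -0.09, and 6124 probes passed, 6107 of them lower and none a member. Without wild-type HDL 2, which leaves the 2 arrays of low signal, 3813 of 15720 probes passed and again no member.

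**Figure D4:**
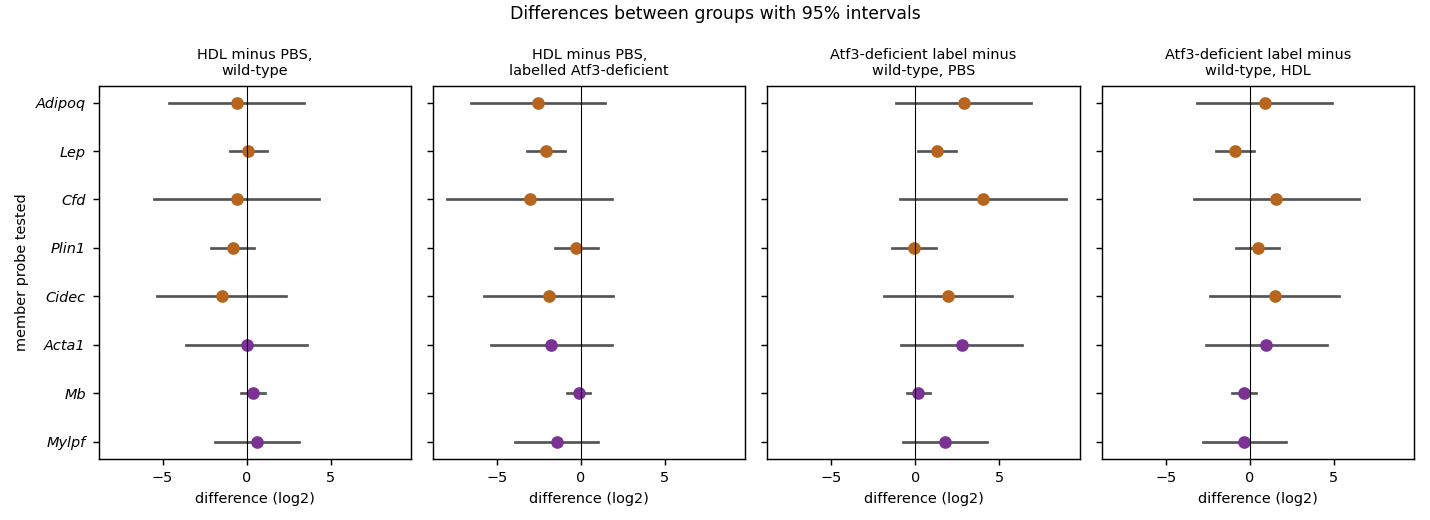
Difference between group means in log2 units (horizontal axes, points) with its 95% interval from the fit (lines) for the 8 tested member probes, fat in brown and muscle in purple, in 4 comparisons. Only the intervals of Lep for HDL in the label Atf3-deficient (-3.21 to -0.96) and for the genotype label in PBS artery (0.17 to 2.42) exclude 0, both with an adjusted p of 1.

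Between the HDL groups the genotype labels differed by 0.88 ± 1.83 for Adipoq, 1.56 ± 2.24 for Cfd, 1.48 ± 1.75 for Cidec and 0.46 ± 0.59 for Plin1 (limma adjusted p from 0.745 to 0.861). Lep was lower on all arrays labelled Atf3-deficient HDL than on all wild-type HDL arrays, by -0.90 ± 0.51 (adjusted p = 0.598), where 3.24% of all probes were lower and 3.93% higher without overlap. Under median scaling it differed by -0.10 ± 0.53, and before normalisation the linear signals of these groups overlapped with the opposite order of their ranges. Of the other white fat probes 18 of 19 were positive, with a median of 0.61, and of the brown fat probes 6 of 7, with a median of 0.66, against 0.06 over all probes. The contractile smooth muscle probes had 9 of 9 positive and a median of 1.503, the fibroblast probes 7 of 7 and 1.59, the endothelial probes 6 of 7 and 1.17, and the leukocyte probes 0 of 7 and -0.83. Their part in the result was not tested. Leaving out Atf3-deficient HDL 3 turned Adipoq to -0.91, Cfd to -0.05 and Cidec to -0.17. Leaving out wild-type PBS 3 as well gave -0.90, -0.05 and -0.17, and leaving out wild-type HDL 1 and 3 turned Adipoq to -0.80 and Cfd to -1.53 and brought Cidec to 0.06 and Lep to -0.52. Within chips Adipoq differed by -0.18 on chip 1 and by 4.13 on chip 2. On chip 1 its linear signals were 122 and 214 in the label Atf3-deficient and 114 on wild-type HDL 1, the opposite order. When wild-type HDL 2 was left out, 1260 of 15720 probes passed, again without a member.
The difference between the HDL effects of the genotype labels was -2.20 ± 0.72 for Lep (adjusted p = 0.753), -1.98 ± 2.59 for Adipoq, -2.47 ± 3.17 for Cfd and -0.45 ± 2.47 for Cidec. Without the 2 arrays of reversed Erdr1 signal it was -2.84 for Lep, -5.96 for Adipoq, -6.71 for Cfd and -4.23 for Cidec (limma adjusted p from 0.355 to 0.977). Without wild-type HDL 1 and 3 it was -1.88 for Lep, -3.73 for Adipoq, -5.59 for Cfd and -1.98 for Cidec (adjusted p = 1). Averaged over the genotype labels, the difference between HDL and PBS was -0.99 ± 0.36 for Lep (limma adjusted p = 0.325), and all 5 fat probes were negative with a median of -1.57. Without wild-type HDL 1 and 3 that of Adipoq went from -1.57 to -0.74, of Cfd from -1.81 to -0.23 and of Cidec from -1.71 to -1.02. Without the 2 arrays of reversed Erdr1 signal that of Lep was -0.63. Averaged over PBS and HDL, all 5 fat probes were positive in the label Atf3-deficient with a median of 1.70, and Cfd differed by 2.80 ± 1.59 (adjusted p = 0.998). Without wild-type HDL 1 and 3 Cfd differed by 1.26, Adipoq by 1.07, against 1.87, and Cidec by 1.05, against 1.70. Lep differed by 0.19 with all arrays, by 0.42 without these and by 0.52 without the 2 of reversed Erdr1 signal.

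Fat and muscle signal were set against each other and against measures of the vessel wall in 6 relations over the 12 arrays, each with 100000 permutations. Adipoq and Ckm gave r = 0.305 (two-sided permutation p = 0.457, adjusted 0.802) and rho = -0.343 (p = 0.276, adjusted 0.686). Ckm was detected on 1 array, of chip 1, so this relation and those below with Ckm rest on that array, and no value is given for chip 2. The value was 0.686 on chip 1, and 0.529 without the 2 arrays farthest from the median Adipoq. Adipoq gave r = 0.130 and rho = -0.266 with Myh11 (permutation p = 0.668 and 0.403, adjusted 0.802 and 0.686), with 0.041 on chip 1, 0.161 on chip 2 and 0.126 without the 2 farthest arrays. With the number of detected probes it gave r = 0.155 and rho = 0.035 (permutation p = 0.64 and 0.922, adjusted 0.802 and 0.922), with -0.069 on chip 1, 0.370 on chip 2 and 0.004 without the 2 farthest.
With Acta1, Ckm gave r = 0.940 and rho = 0.238 (permutation p = 0.0529 and 0.457, adjusted 0.318 and 0.686), 0.994 on chip 1, and 0.044 without the 2 farthest arrays. With Myh11 and with the number of detected probes r was -0.03 and -0.23 (adjusted permutation p = 0.873 and 0.802), and rho -0.03 and -0.27 (adjusted permutation p = 0.922 and 0.686).

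Macrophages cultured from bone marrow, which contain neither tissue, served as a background for the same probes. On their 48 arrays the probes of Adipoq, Lep, Plin1, Cidec, Ckm, Acta1, Mb and Tnnt3 were detected on none. Cfd was detected on 1, the second Mylpf probe on 1 and the first Mylpf probe on 28. Linear signals of Adipoq there were 85.7 to 145. Above this range lay Atf3-deficient HDL 2 with 214, wild-type HDL 2 with 381 and the 5 artery arrays with the highest Adipoq, with 839 to 4020. Wild-type PBS 1 with 142 and wild-type HDL 3 with 116, both detected, lay within it, as did the artery arrays without detection. These signals were not normalised between experiments.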

How the data were processed

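RNA was measured on Illumina mouse BeadChips. Per the file headers, the deposited scanner tables list every probe with its mean signal intensity on an array, followed by a detection p-value, and the deposited matrix was used as an alternative. Its artery columns are log2 of the un-normalised signals, as found by setting both deposited tables side by side, and they were quantile-normalised here. The submitters' processing notes name Partek without version or steps. Scanner software, RNA extraction and genome build are not given in the sources used here. The 12 artery arrays lay on 2 chips of 6, each holding all 4 groups. The number of arrays limits the precision.

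The arrays were processed with limma 3.58.1 in R 4.3.3: neqc (normexp fitted from the detection p-values, offset 16, quantile normalisation, log2), 1 linear model of 4 group means with 8 residual degrees of freedom, eBayes, and Benjamini-Hochberg adjustment over the 15868 probes called detected (p under 0.01) on 3 arrays or more. A probe passed at an adjusted p under 0.05. Quantile normalisation gives all arrays one distribution, so dim probes can rank differently before and after it. A fold against a group without detection uses, per array of that group, the higher of the lowest detected signal and the probe's own. Undetected values of the other group were kept as measured. Probes were named through the platform annotation, in which 34885 probes had 1 symbol, 18 had several and 10378 had none. Of the former 34807 were found by gene ID in RefSeq, whose GRCm38.p6 promoters were used. The method was tested on simulated data. Correlations and figures used Python 3.11.15, scipy 1.17.1 and matplotlib 3.10.9.

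Named genes were all members, the 3 brightest of each other list detected on at least 3 arrays, the 8 genes most like each tissue's mean, Myh11 and Atf3. Ucp1, Erdr1 and genes named as undetected or as single counts were chosen after their values were seen. Members and lists were chosen with earlier results of these data known. Alternatives were no normexp correction, median scaling, the deposited matrix, other detection filters, 1 probe per gene, the chip as fixed or random effect, only the compared groups, values within a chip, and leaving out each array. Leaving out the arrays of low signal or of reversed Erdr1 signal was added after seeing the data.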

Additional observations from a re-analysis of the deposited data

How the results depend on the processing

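No member passed under any of 158 combinations of comparison and alternative setting, and the lowest adjusted p of a member was 0.093. Counts over all probes were 0 in the results and rose in these cases. Median scaling, under which the median of all probes moved to between -0.96 and 1.35 over the 7 comparisons, gave 6124 for HDL in wild-type artery. Leaving out each array in turn gave 0 to 3813 for HDL in wild-type artery, 0 to 1260 for the genotype label in HDL artery, 0 to 635 for the difference of HDL effects, 0 to 1650 for averaged HDL and 0 to 11 for the averaged genotype label. All the highest counts came without wild-type HDL 2, when the remaining pair were the arrays of low signal. Without the 2 arrays of reversed Erdr1 signal 5 probes passed for the genotype label in PBS artery, 1 in HDL artery and 1 for the averaged label. The range of Acta1 over the arrays was 8.27 and fell to 5.73 both without normexp and in the deposited matrix, each quantile-normalised, and that of Mylpf 5.89 and fell to 3.55. Both alternatives keep the background in the signal, which shortens ranges on a log scale. Of 56 member differences, 32 kept their sign under every setting that gave a test. Plin1, Acta1 and Mb, each detected on exactly 3 arrays, were not tested when 1 of these arrays was left out. The count therefore does not cover their dependence on those arrays. Within a single chip 27 member values moved by more than the spread between arrays. Arrays that shared a chip had an estimated correlation of -0.04. No paired analysis was possible because replicates were numbered by accession order, which links no array to another. Signal over background limits Ckm, Tnnt3, Plin1, Acta1 and Mb, which were detected on 3 arrays or fewer. It also limits Lep in the group labelled Atf3-deficient HDL, where it was detected on 1 array of 3.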

Other observations

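Transcripts of other structures of the neck were detected in some of the pieces. Tg, thyroglobulin, the hormone precursor made by the thyroid, was 8.99 on the array labelled Atf3-deficient HDL 1, 6.11 on Atf3-deficient PBS 3, 6.06 on wild-type HDL 2 and 4.90 on wild-type PBS 1, and it was not detected on the other 8. Array Atf3-deficient HDL 1, highest in Tg, had 1 of 5 fat members and 3 of 5 muscle members detected. Sox10, a transcription factor of Schwann cells, was detected on 5 arrays, with 8.80 on Atf3-deficient PBS 1, 6.86 on wild-type PBS 3, 5.66 on Atf3-deficient PBS 2, 5.19 on Atf3-deficient PBS 3 and 5.04 on wild-type HDL 2. All 5 of these arrays had an Adipoq of at least 8.26, but Atf3-deficient HDL 3, with an Adipoq of 11.14, had an undetected Sox10 of 4.76. The other nerve genes did not follow Sox10: Mbp, a myelin protein, was highest on wild-type HDL 1 with 8.49, and Pmp22, another, was 9.27 on wild-type PBS 2, both arrays without detected Sox10. Amy1, the salivary amylase, was highest on wild-type PBS 3 with 6.63.

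Lyz2, the lysozyme of myeloid cells, was highest on wild-type HDL 1 and 3, with 13.11 and 13.07, the arrays of low Myh11. S100a9 and S100a8, calcium-binding proteins of neutrophils, were 13.03 and 12.87 on wild-type HDL 1 but 10.39 and 10.16 on wild-type HDL 3, at the low end of their ranges of 10.39 to 13.03 and 10.15 to 13.06. Lum, a collagen-binding proteoglycan of fibroblasts, was 5.29 and 4.52 on these arrays without detection and 7.14 to 11.07 on the other 10.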
